A study of Mus musculus with 12 samples.

Results

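Pulmonary surfactant is made by a set of genes that can be read together, and 10 of them are described here: the surfactant proteins Sftpa1, Sftpb, Sftpc and Sftpd, and the lamellar body genes Abca3, Lpcat1, Lamp3, Napsa, Slc34a2 and Sfta2. They were chosen by name, matched by Ensembl identifier, and all 10 were found among the 54186 identifiers that the lung and the sorted-cell count tables share. The libraries are poly-A RNA-seq of C57BL/6 mice. Some lacked Med23, part of the Mediator complex of transcription, in their T cells (knockout, KO), and the others were wild type. Mice 102, 217 and 224, all knockouts aged 18 months, each gave a lung tumour and a piece of adjacent normal tissue. Alveolar type 2 (AT2) cells sorted by flow cytometry came from 3 knockout mice, numbered 175, 179 and 191, and 3 wild-type (WT) mice, numbered 176, 177 and 190, at an age of 6 months. Both lung groups carry the deletion, so no wild-type lung stands beside them. The Cre line that deletes Med23 is not given in the sources used here. The design asks what kind of tumour knockout mice carry at 18 months and what state AT2 cells are in at 6 months.

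Surfactant is a film of phospholipid and a few proteins that lowers surface tension at the air-liquid interface and keeps alveoli open. AT2 cells build it in lamellar bodies, lysosome-related organelles in which lipid transporters pack phosphatidylcholine in layers together with the small hydrophobic proteins SP-B and SP-C, and release it by exocytosis. The larger collectins SP-A and SP-D are secreted proteins that bind sugars on microbes. AT2 cells are also known as cells of origin of lung adenocarcinoma in mice, and several of these genes serve as markers of that tumour.

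Lung libraries held 65163100 to 77951014 counts each, and AT2 libraries 15943084 to 18913242. The unit of a level is CPM: a gene's count divided by the TMM-adjusted size of its library and brought to 1 standard size. The adjusted p is that of edgeR's quasi-likelihood test over all genes of a table, adjusted by the Benjamini-Hochberg method (threshold 0.05), and every log2 fold change is tumour over adjacent or AT2 KO over AT2 WT. The labels do not say whether AT2 libraries were prepared together, so p-values measure the spread between these animals and any technical spread with it. Med23 itself had 25.9, 18.3 and 36.8 CPM in tumours of mice 102, 217 and 224, against 29.8, 21.0 and 31.5 CPM in adjacent tissue. It had 42.1, 45.7 and 46.5 CPM in AT2 KO cells, against 40.1, 34.4 and 46.4 CPM in AT2 WT cells. As the deletion is in T cells, these levels do not check a label. In the sorted cells the 4 surfactant proteins summed to 118700 to 119800 CPM in AT2 KO cells and 116900 to 154000 CPM in AT2 WT cells, whereas 8 endothelial markers summed to 6.51 to 13.6 CPM and 4.99 to 8.29 CPM, and 8 fibroblast markers to 0.439 to 0.993 CPM and 0.573 to 1.21 CPM. The club cell list summed to 4103 to 4462 CPM in AT2 KO cells and 3699 to 4817 CPM in AT2 WT cells. Most of that sum was Cbr2, with a mean of 3627 CPM in AT2 KO and 3842 CPM in AT2 WT cells. Scgb1a1 had means of 457 and 417 CPM, and Scgb3a2 8.63 and 9.47 CPM. AT1 markers summed to 2322 to 2468 CPM in AT2 KO cells and 2368 to 2731 CPM in AT2 WT cells.

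Some libraries stood apart in a way that bears on these genes, since the members differ in exon length. Across 19973 tested genes of known length, the deviation of a library from the mean of its table ran against length in both libraries of mouse 217, with a Spearman correlation across genes of -0.288 in the tumour and -0.256 in the adjacent tissue. The other 4 lung libraries ran with length, at 0.113 to 0.264. Among AT2 libraries the same measure was -0.172 in WT 176 and -0.233 in WT 177, against 0.343 in WT 190 and 0.122 to 0.187 in the 3 KO libraries. Genes are not independent replicates, and these correlations are descriptions.

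In GRCm38, with GENCODE M21 gene bounds, Sftpa1 spans chr14:41131782-41136452 on the forward strand and Sftpd chr14:41172214-41185149 on the reverse strand beside it, while Sftpc lies apart on the reverse strand at chr14:70520949-70524081. Sftpb spans chr6:72304610-72314371, Lpcat1 chr13:73467197-73516422, Napsa chr7:44572380-44586862 and Slc34a2 chr5:53038081-53071664, all on the forward strand. Lamp3 spans chr16:19653378-19706375 on the reverse strand. Abca3, at chr17:24351950-24410201, and Sfta2, at chr17:35601549-35650571, share a chromosome and the forward strand. All are protein coding, and the counts were given per gene. Exon lengths, over all GENCODE exons of a gene, run from 1.03 kb for Sftpc and 1.08 kb for Sfta2 to 9.37 kb for Abca3. Opposite-strand genes overlap exons of Abca3 by 914 bases and of Napsa by 502 bases, and the library kit does not mark strand. Their own counts over the 6 lung libraries, 2201 beside 319525 for Abca3 and 2465 beside 231419 for Napsa, were small. These counts do not show how reads in the shared bases were assigned, as the counting method was not given.

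Promoters of 7 of the 10 members are held in the RefSeq table for GRCm38.p6, and 4 are shown because they belong to the members that passed the test between tumour and adjacent tissue (Sftpb and Lamp3) and to the other members with the NKX2-1 motif. Each sequence is the 250 bases before the RefSeq start, 5′ to 3′ on the strand of the gene. Capitals mark matches, on either strand, to CTCAAG, the core motif of NKX2-1, which turns on surfactant genes, to TTGCNNAA, a C/EBP motif, or to TGTTTNC, a FOXA motif. The windows are chr6:72304360-72304609 (forward) for Sftpb, chr16:19706366-19706615 (reverse) for Lamp3, chr14:41131538-41131787 (forward) for Sftpa1 and chr17:35649458-35649707 (forward) for Sfta2. RefSeq and GENCODE starts differ for every window except that of Sftpb. The windows of Sfta2 and Slc34a2 lie wholly inside the GENCODE bounds given above. Those of Sftpa1, Lamp3, Abca3 and Lpcat1 reach past the GENCODE start in part.
Sftpb: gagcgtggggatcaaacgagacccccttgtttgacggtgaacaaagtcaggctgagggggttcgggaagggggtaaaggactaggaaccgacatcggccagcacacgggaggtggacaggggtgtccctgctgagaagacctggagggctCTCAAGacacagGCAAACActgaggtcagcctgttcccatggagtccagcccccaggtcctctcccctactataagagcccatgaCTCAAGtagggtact
Lamp3: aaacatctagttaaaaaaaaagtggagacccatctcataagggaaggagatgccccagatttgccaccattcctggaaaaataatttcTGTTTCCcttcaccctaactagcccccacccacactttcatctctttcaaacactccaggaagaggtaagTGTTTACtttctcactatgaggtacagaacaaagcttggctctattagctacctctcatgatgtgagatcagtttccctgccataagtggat
Sftpa1: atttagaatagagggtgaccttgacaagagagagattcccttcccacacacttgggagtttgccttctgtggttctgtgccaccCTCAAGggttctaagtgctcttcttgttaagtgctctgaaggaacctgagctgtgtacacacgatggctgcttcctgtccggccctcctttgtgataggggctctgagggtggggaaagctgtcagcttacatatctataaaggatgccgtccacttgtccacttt
Sfta2: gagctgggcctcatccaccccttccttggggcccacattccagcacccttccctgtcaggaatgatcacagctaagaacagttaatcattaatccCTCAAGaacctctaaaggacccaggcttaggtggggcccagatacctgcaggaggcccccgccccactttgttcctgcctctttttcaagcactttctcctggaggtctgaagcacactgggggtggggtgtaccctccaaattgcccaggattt
CTCAAG stands 100 and 15 bases before the start of Sftpb, 166 before that of Sftpa1 and 155 before that of Sfta2, and in none of the other 4 windows. Of 32851 promoter windows of the same length in the table, 13.3% hold it and 0.998% hold it more than once. TGTTTNC stands 162 and 92 bases before the start of Lamp3, and on the reverse strand 88 bases before that of Sftpb. Of all windows, 17.8% hold that motif and 2.08% hold it more than once. Slc34a2 has a TTGCNNAA match 48 bases before its start, a motif held by 9.56% of windows. Abca3 and Lpcat1 have no match to any of the 3 motifs in this window. A match is a string of letters and not a measured site.

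In the lungs, 2 of the 10 members rose in tumour relative to adjacent tissue (Sftpb and Lamp3) and none fell, where 2.86% of the 19995 genes tested passed as higher and 7.18% as lower. In 6 members all 3 tumours lay above all 3 adjacent samples, as 11.6% of all genes did, and in none did all 3 lie below, as 18.9% did. The median log2 fold change of the 4 surfactant proteins was 1.91 and that of the 6 lamellar body genes 1.39, beside 0.04 over all genes tested. Without tumour 217 the median of the surfactant proteins was 1.17, and with any other library left out it was 1.74 to 2.16. That of the lamellar body genes was 1.21 to 1.38 over the 6 such fits. In bulk tissue, more cells of a type and more RNA per cell cannot be told apart. With the mouse as a block, which uses the pairing of the lung samples, 6 members rose, where 1113 of 19995 genes were higher. Fits that left out 1 library called 0 to 3 members: 3 without tumour 217, 1 without tumour 102, and 0 without tumour 224 or any of the 3 adjacent libraries. Of all genes, 461 of 21215 were higher without tumour 217 and 258 of 21310 without tumour 102. Without both libraries of mouse 217 no member passed.

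**Figure D1:**
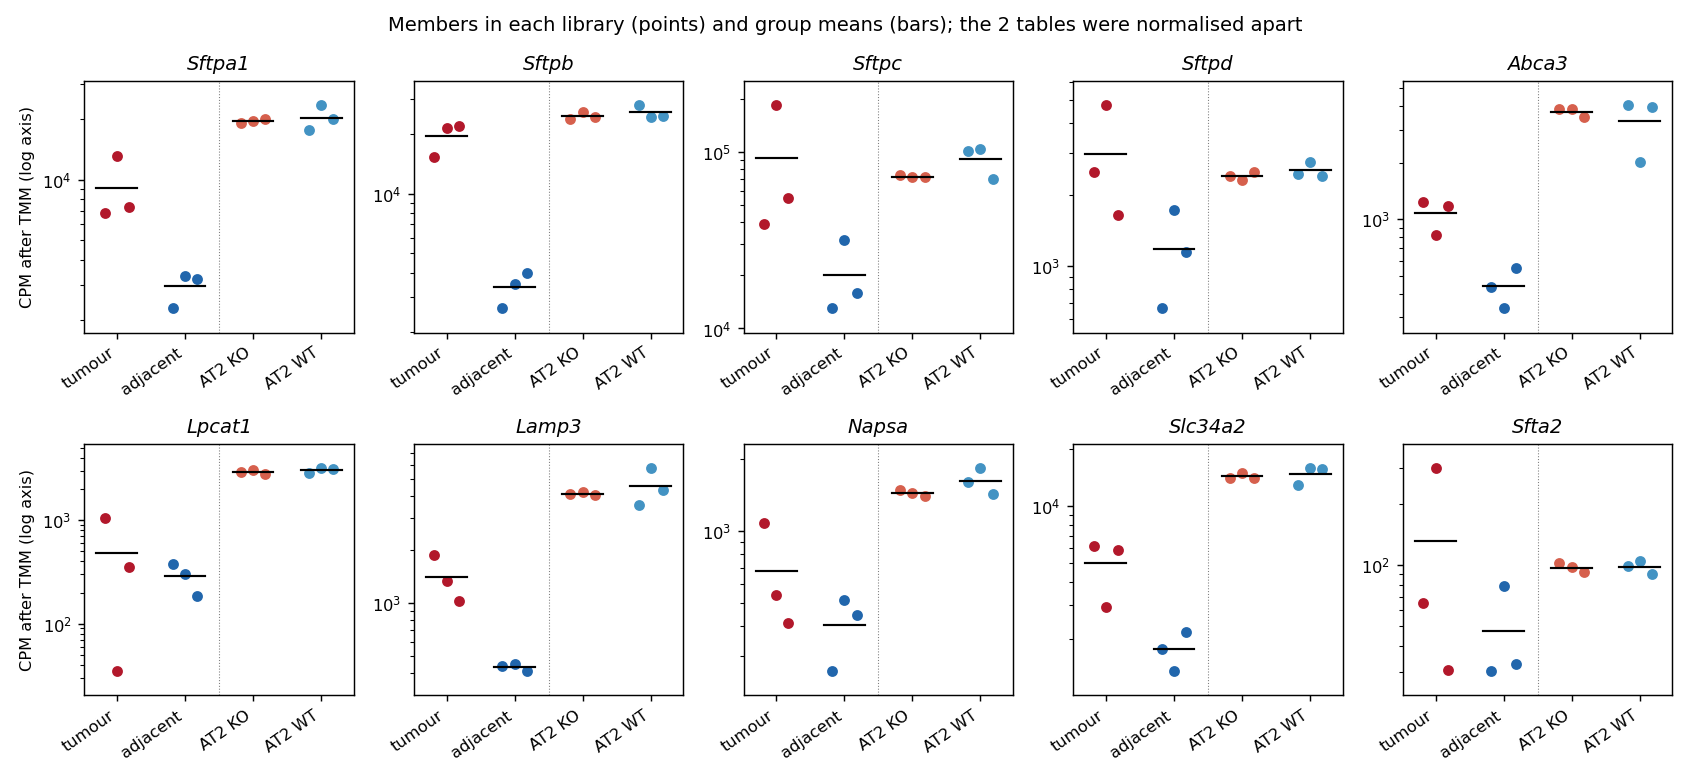
CPM after TMM (log axis) of each member in each library (points; left to right by mouse number within a group) with group means (bars), for tumour, adjacent, AT2 KO and AT2 WT; the lung and AT2 tables were normalised apart. Tumour points lie above all adjacent points for 6 members, while AT2 KO and AT2 WT points overlap for all 10.

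Among the hydrophobic proteins, Sftpb gave the clearest difference. SP-B is required to pack lamellar bodies and to spread the surface film. Sftpb had 15378, 21423 and 21895 CPM in tumours of mice 102, 217 and 224, against 2639, 3506 and 3977 CPM in their adjacent tissue. The groups lay far apart and every tumour exceeded every adjacent sample. This was a log2 fold change of 2.54 ± 0.46 (SE, n = 3 each), with an adjusted p of 0.0177. Within a mouse the log2 ratio was 2.54, 2.61 and 2.46, the narrowest spread of any member. The call ended without tumour 224 (adjusted p = 0.0568), adjacent 102 (0.0715), adjacent 217 (0.0708) or adjacent 224 (0.0781), while the log2 fold change stayed between 2.39 and 2.67 over the 6 such fits.

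Sftpc, the gene most restricted to AT2 cells, had by far the highest level of the 10. It had 38768, 182980 and 55003 CPM in tumours, against 13009, 31494 and 15965 CPM in adjacent tissue. The tumours lay above all adjacent samples, with tumour 217 far above the other 2, and adjacent 217 was the highest of its group too. It differed by a log2 fold change of 2.19 ± 0.78 with an adjusted p of 0.131, and it was 1.14 without tumour 217. With the replicate block it passed (1.96, adjusted p = 0.0462), but not when the length trend of each library was also removed (1.74, adjusted p = 0.0737). Sftpc is the shortest member, and both libraries of mouse 217 ran against length.

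The 2 collectins behaved less alike. Sftpa1, encoding SP-A, had 6861, 13134 and 7287 CPM in tumours, against 2288, 3318 and 3212 CPM in adjacent tissue. No tumour overlapped an adjacent sample, and the highest value in both groups came from mouse 217. Its log2 fold change of 1.63 ± 0.46 missed the threshold (adjusted p = 0.0653) and passed with the replicate block (1.58, adjusted p = 0.0324). Sftpd, encoding SP-D, which also governs the size of the surfactant pool, had 2499, 4764 and 1637 CPM in tumours, against 665, 1732 and 1150 CPM in adjacent tissue. Here the lowest tumour, 224, fell below the highest adjacent sample, 217. The log2 fold change was 1.33 ± 0.55 (adjusted p = 0.191), 0.73 without tumour 217, and 1.296 with the replicate block (adjusted p = 0.0712).

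Of the lamellar body genes, Lamp3, a protein of the organelle's limiting membrane, passed. It had 1873, 1332 and 1021 CPM in tumours, against 438, 452 and 412 CPM in adjacent tissue. The adjacent samples were nearly equal and all tumours exceeded them. Lamp3 rose by 1.70 ± 0.36 on the log2 scale, with an adjusted p of 0.0286. Of the 6 fits without 1 library, Lamp3 passed in the one without tumour 217 (adjusted p = 0.0415). Its call was lost when tumour 102 (0.0785) or tumour 224 (0.0582) was dropped, and likewise with adjacent 102 (0.0950), 217 (0.0874) or 224 (0.116).

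The transporters did not pass in the fit on group alone and passed with the replicate block. Abca3, which carries phospholipid into the lamellar body, had 1228, 820 and 1177 CPM in tumours, against 434, 335 and 547 CPM in adjacent tissue. Its groups did not overlap, and the log2 fold change was 1.29 ± 0.36 (adjusted p = 0.0631), with 1.299 and an adjusted p of 0.0215 under the block. Slc34a2, the sodium-phosphate cotransporter that takes phosphate back from the alveolar fluid, had 6159, 2931 and 5914 CPM in tumours, against 1762, 1353 and 2176 CPM in adjacent tissue. Its groups also stood apart, with mouse 217 the lowest of each. The log2 fold change was 1.504 ± 0.45 (adjusted p = 0.0803), with 1.45 and an adjusted p of 0.0305 under the block. It also passed without tumour 217 (1.70, adjusted p = 0.0403).

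Napsa, Lpcat1 and Sfta2 overlapped between the groups. Napsa, encoding the aspartic protease napsin A that trims pro-SP-B, had 1082, 543 and 414 CPM in tumours, against 260, 514 and 446 CPM in adjacent tissue. Tumour 102 stood above all the rest, and the other 2 tumours lay among the adjacent values (log2 fold change 0.74 ± 0.47, adjusted p = 0.410, and 0.20 without tumour 102). Lpcat1, which remakes phosphatidylcholine into the saturated form found in surfactant, had 1059, 34.98 and 355 CPM in tumours, against 378, 305 and 184 CPM in adjacent tissue. Tumour 217 was the lowest library of the 6 and tumour 102 the highest. Its log2 fold change was 0.74 ± 0.95 (adjusted p = 0.723), and it changed sign to -0.62 without tumour 102 and was 1.23 without tumour 217. Sfta2, a small secreted protein linked to surfactant, had 65.4, 299.6 and 30.6 CPM in tumours, against 30.2, 79.0 and 32.7 CPM in adjacent tissue. The highest value again came from mouse 217 in each group. The log2 fold change was 1.48 ± 0.82 (adjusted p = 0.342), and -0.06 without tumour 217.

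**Figure D2:**
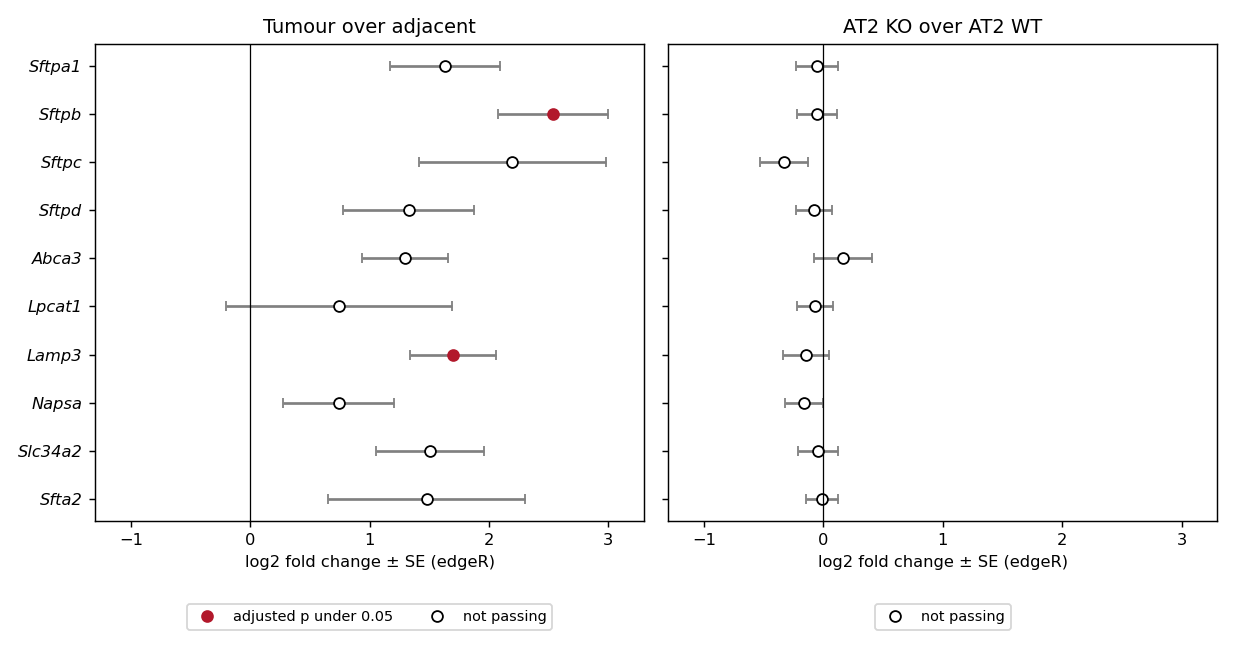
Log2 fold change with its SE from edgeR's quasi-likelihood test for each member, tumour over adjacent on the left and AT2 KO over AT2 WT on the right; filled points have an adjusted p under 0.05. Sftpb at 2.54 and Lamp3 at 1.70 pass in the lung, and the AT2 values run from -0.33 to 0.16 with none passing.

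Compared within a mouse, 7 of 10 members were higher in the tumour of all 3 mice, as 28.2% of all genes tested were. The exceptions were Lpcat1, with log2 ratios of 1.49, -3.12 and 0.95 in mice 102, 217 and 224, Napsa with 2.06, 0.08 and -0.11, and Sfta2 with 1.11, 1.92 and -0.10. In mouse 102 all 10 members were higher in the tumour. The other 7 members ranged from 0.51 (Sftpd in mouse 224) to 2.61 (Sftpb in mouse 217). Lpcat1 and Sfta2 thus turned in different animals.

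**Figure D3:**
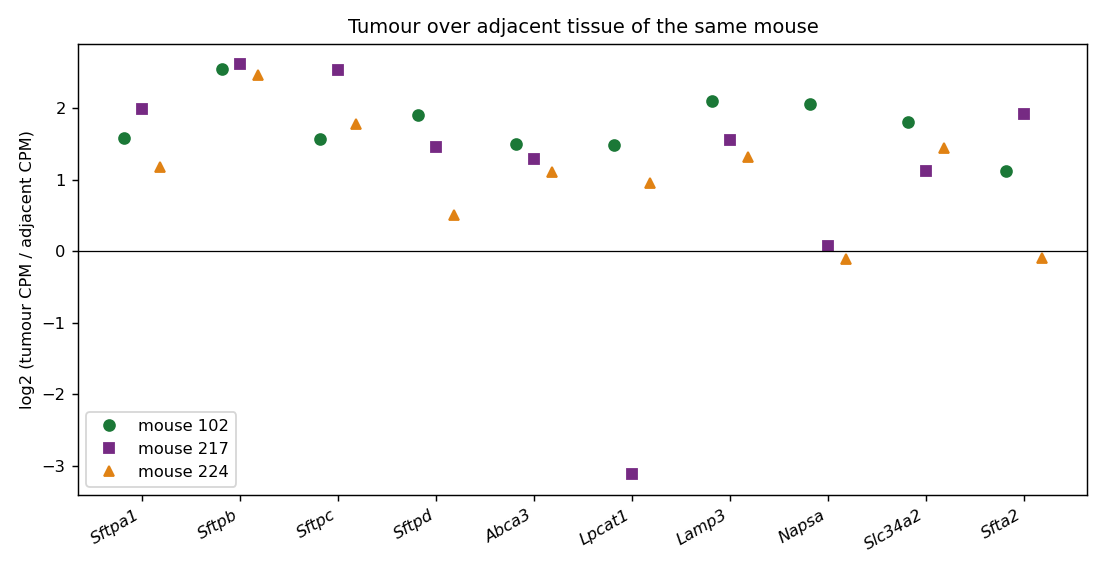
Log2 ratio of tumour CPM to adjacent CPM in the same mouse for each member, with 1 symbol per mouse. Sftpb lies between 2.46 and 2.61 in all 3 mice, whereas Lpcat1 is at -3.12 in mouse 217 and above 0 in the other 2.

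In the 6 lung libraries the members' own deviations ran the same way with length as those of all genes. In tumour 217, the log2 deviation of a member from the mean of the other 2 tumours had a Spearman correlation with exon length of -0.855 over the 10 members, and in adjacent 217 it was -0.842. It was 0.685 and 0.564 in tumours 102 and 224, and 0.733 and 0.442 in adjacent 102 and 224. The short genes Sfta2 and Sftpc were 2.74 and 1.99 above the other tumours on the log2 scale in tumour 217. The longer genes Lpcat1 and Slc34a2 were 4.13 and 1.04 below them (deviations of -4.13 and -1.04). Abca3, the longest member, deviated by -0.55, so the fall of Lpcat1 was out of step with its length. In adjacent 217, Lpcat1 was 0.21 above the others. With the length trend removed and the mouse as a block, 5 members rose: Sftpa1, Sftpb, Abca3, Lamp3 and Slc34a2. In the same fit 1082 of 19995 genes were higher. Removing the length trend left Lpcat1 nearly where it was, at 0.039 (log2) against -0.00064 with the block alone. In AT2 cells the correlation was -0.0909, 0.455 and -0.467 in KO 175, 179 and 191, and -0.333, -0.224 and 0.903 in WT 176, 177 and 190. The members' deviations are from the other 2 libraries of a group, and those of all genes from the mean of a table. Their signs can differ for that reason alone. Deviations of 3 libraries in a group depend on each other, and the part of length in the members' values was not tested beyond that fit.

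**Figure D4:**
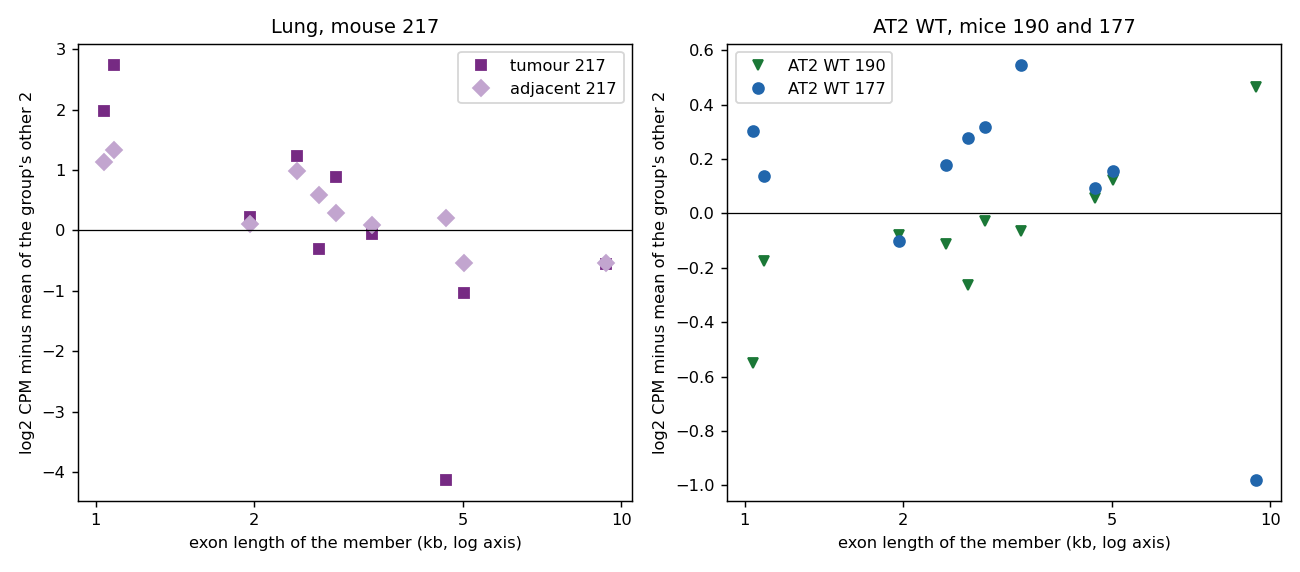
Deviation of each member's log2 CPM from the mean of its group's other 2 libraries against exon length (log axis), for both libraries of mouse 217 on the left and for AT2 WT 190 and 177 on the right. In tumour 217 the deviations run from 2.74 for Sfta2 to -4.13 for Lpcat1, and in WT 190 from -0.55 for Sftpc to 0.47 for Abca3.

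Together the 10 members took 7.20%, 18.4% and 9.61% of all counts in tumours 102, 217 and 224, against 2.38%, 4.37% and 3.24% in adjacent tissue. Without Sftpc the shares were 3.48%, 3.65% and 4.03% in tumours, against 0.965%, 1.17% and 1.40% in adjacent tissue. The spread between tumours thus came mostly with Sftpc, which made up 51.7% to 80.2% of member counts in tumours and 56.8% to 73.1% in adjacent tissue.

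Per kilobase of exon, Sftpc ranked 1st of the 15018 genes with a mean of at least 1 CPM in tumours and 2nd of 15845 in adjacent tissue. Sftpb ranked 3rd in tumours and 26th in adjacent tissue, at a mean level of 9942 and 1715 CPM per kb. Sftpa1 followed, at rank 16 in tumours (3180 CPM per kb) and rank 43 in adjacent tissue (1028 CPM per kb). Below these, neighbours in the order mostly overlapped. In tumours Sftpd overlapped Slc34a2, and the run from Lamp3 through Napsa, Sfta2 and Abca3 to Lpcat1 overlapped pair by pair. In adjacent tissue Sftpd overlapped Slc34a2, Napsa overlapped Lamp3, and Lpcat1, Abca3 and Sfta2 overlapped in that order. The lowest means were those of Lpcat1 in tumours, at 104 CPM per kb, and Sfta2 in adjacent tissue, at 43.6 CPM per kb.

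Several sets of cell type markers also differed between tumour and adjacent tissue. Summed CPM of 8 epithelial markers was 3199, 4271 and 3418 in tumours, against 1355, 1583 and 1259 in adjacent tissue, and 3 of 8 rose. Endothelial markers summed to 737, 859 and 756 CPM in tumours, against 4779, 3365 and 2938 CPM in adjacent tissue, with 6 of 8 lower. Alveolar macrophage markers summed to 2307, 1354 and 964 CPM in tumours, against 702, 8660 and 8534 CPM in adjacent tissue, with 2 of 10 lower. AT1 markers summed to 1657, 2595 and 1293 CPM in tumours, against 4890, 4400 and 3716 CPM in adjacent tissue, with 5 of 12 lower. Club cell markers had 4 of 7 lower and ciliated cell markers 6 of 7, summing to 2240 to 3085 CPM and 3.44 to 16.8 CPM in tumours, against 18350 to 37460 CPM and 289.5 to 498.1 CPM in adjacent tissue. Immune markers had 2 of 10 lower and fibroblast markers 0 of 8 in either direction, summing to 153.6 to 274.7 CPM and 556 to 1071 CPM in tumours, against 533 to 1306 CPM and 1414 to 1953 CPM in adjacent tissue. With the replicate block 5 of 8 epithelial markers were higher, and 4 of 8 fibroblast and 3 of 10 immune markers lower. With 1 library left out, 1 to 3 of the epithelial markers were higher. Likewise 2 to 7 of the endothelial, 2 to 5 of the AT1, 2 to 4 of the club, 3 to 7 of the ciliated, 1 to 2 of the alveolar macrophage, 0 to 2 of the immune and 0 to 1 of the fibroblast markers were lower. The part of cell makeup in the members' change was not tested.

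Set against the summed epithelial markers of the same library, Sftpb and Sftpc were higher in the tumour of all 3 mice, where 2.97% of all genes were, and the other 8 members differed in direction between mice. The log2 change of Sftpb relative to that sum was 1.303, 1.18 and 1.02 in mice 102, 217 and 224, and that of Sftpc 0.34, 1.11 and 0.34. No member was lower in all 3 mice, where 80.6% of all genes were. Set against Epcam alone, a cell surface adhesion protein chosen after its values were seen, the picture differed. Epcam had 395, 388 and 322 CPM in tumours, against 69.9, 76.1 and 65.7 CPM in adjacent tissue, and rose by 2.38 ± 0.29 on the log2 scale (adjusted p = 0.00765). Relative to it, Sftpb was still higher in all 3 mice, by 0.04, 0.26 and 0.17 on the log2 scale, where 1.13% of all genes were. Sftpc differed between mice and the other 8 were lower in all 3, where 91.8% of all genes were.

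Other AT2 genes gave a mixed picture. Of 15 AT2 markers outside the 10 members, 4 rose (Egfl6, Dram1, Lgi3 and Rab27a) and 1 fell (Lyz1), with a median log2 fold change of 1.09. They are named here after their values were seen, and some genes stand in more than 1 list. With the replicate block 8 rose and 1 fell, and with 1 library left out 0 to 4 rose and 0 to 1 fell. In 9 of the 15 all tumours lay above all adjacent samples and in 1 all lay below, as 11.6% and 18.9% of all genes did. Their summed CPM, 36160, 20640 and 20330 in tumours against 11720, 28340 and 24090 in adjacent tissue, overlapped between groups. A sum follows its highest genes, which in AT2 KO cells were Lyz2 and Scd1, with means of 28376 and 20903 CPM.

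In sorted AT2 cells the deletion in T cells came with no called difference in any member. None of the 10 members passed, nor did any of the 14053 genes tested (0%), of which 347 had an unadjusted p under 0.05. The DESeq2 Wald test called 1 gene and limma-voom 0, neither with a member among them. AT2 KO and AT2 WT values overlapped for all 10 members, where 4.19% of genes were higher and 4.11% lower without overlap. Adjusted p ran from 0.984 to 0.998.

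The largest estimate was that of Sftpc. It had 73601, 72031 and 71520 CPM in AT2 KO cells of mice 175, 179 and 191, against 100610, 103250 and 69685 CPM in AT2 WT cells of mice 176, 177 and 190. The KO libraries were nearly equal, while the 2 WT libraries that ran against length were high and WT 190 lay below all KO libraries. The log2 fold change was -0.33 ± 0.20, a fold of 0.794 with a 95% interval of 0.585 to 1.08. It was -0.26 without WT 176, -0.24 without WT 177 and -0.49 without WT 190 (adjusted p = 0.394). It was -0.23 with the length trend removed and 0.05 without WT 176 and 177.

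The other surfactant proteins lay closer together. Sftpb had 23927, 25934 and 24536 CPM in AT2 KO cells, against 27936, 24511 and 24757 CPM in AT2 WT cells, and its fold of 0.964 had a 95% interval of 0.747 to 1.24. Sftpa1 had 19225, 19577 and 20096 CPM in AT2 KO cells, against 17738, 23500 and 20033 CPM in AT2 WT cells, with a fold of 0.961 (0.736 to 1.26). Sftpd had 2397, 2301 and 2505 CPM in AT2 KO cells, against 2452, 2748 and 2404 CPM in AT2 WT cells, with a fold of 0.947 (0.751 to 1.195). In each of these the KO libraries fell inside or near the range of the WT libraries, and the intervals reach to both sides of 1.

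Abca3 had the highest estimate, and 1 library set it. It had 3868, 3845 and 3491 CPM in AT2 KO cells, against 4034, 2023 and 3948 CPM in AT2 WT cells. WT 177 was far below the other 5 libraries. The log2 fold change of 0.16 ± 0.24 became -0.10 without WT 177. Lamp3, at 4102, 4240 and 4053 CPM in AT2 KO cells against 3590, 5778 and 4358 CPM in AT2 WT cells, showed WT 177 at the other extreme, as the highest library. Slc34a2 had 14138, 14994 and 14133 CPM in AT2 KO cells, against 13051, 15941 and 15716 CPM in AT2 WT cells.

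Of the last 3 members, Lpcat1 had 2944, 3026 and 2761 CPM in AT2 KO cells, against 2848, 3182 and 3128 CPM in AT2 WT cells. Napsa had 1491, 1447 and 1407 CPM in AT2 KO cells, against 1604, 1836 and 1428 CPM in AT2 WT cells. Sfta2 had 102, 97.4 and 92.4 CPM in AT2 KO cells, against 99.6, 104 and 90.2 CPM in AT2 WT cells. All 3 overlapped, and the largest fold the interval of any member allowed was 1.61, for Abca3, and the smallest 0.585, for Sftpc.

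The 10 members together took 14.8% to 15.0% of counts in AT2 KO cells, against 14.7% to 17.5% in AT2 WT cells, and without Sftpc 7.33% to 7.60% against 7.34% to 7.66%. Per kilobase the order was the same in both groups: Sftpc, Sftpb, Sftpa1, Slc34a2, Lamp3, Sftpd, Lpcat1, Napsa, Abca3 and Sfta2. In AT2 KO cells no neighbours in this order overlapped. In AT2 WT cells Lamp3 overlapped Sftpd and Lpcat1 overlapped Napsa. The level of Sftpc was 70004 ± 1049 CPM per kb in AT2 KO cells and 88183 ± 18050 CPM per kb in AT2 WT cells (SD, n = 3 each), first among all genes of mean at least 1 CPM in both.

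Set beside sorted AT2 KO cells, whose table was normalised apart and whose mice were younger, the tumours held the members at unequal levels. Mean tumour CPM as a percentage of the AT2 KO mean was 127% for Sftpc, 124% for Sftpd, 135% for Sfta2 and 78.9% for Sftpb. It was lower for the lamellar body genes other than Sfta2, at 16.6% for Lpcat1, 28.8% for Abca3, 34.1% for Lamp3, 34.7% for Slc34a2 and 46.9% for Napsa, and it was 46.3% for Sftpa1. Tumour 217 raised the means of Sftpc, Sftpd and Sfta2. In tumours 102 and 224, Sftpc (38768 and 55003 CPM) lay below its AT2 KO mean of 72384 CPM. Sfta2 (65.4 and 30.6 CPM) also lay below its AT2 KO mean, 97.4 CPM. Sftpd (2499 and 1637 CPM) lay on either side of its AT2 KO mean, 2401 CPM. In adjacent tissue the percentages ran from 9.92% for Lpcat1 to 49.2% for Sftpd. By mean CPM per kb, Sftpd stood above Lamp3 in tumours and below it in AT2 KO cells. These are descriptions with no test.

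**Figure D5:**
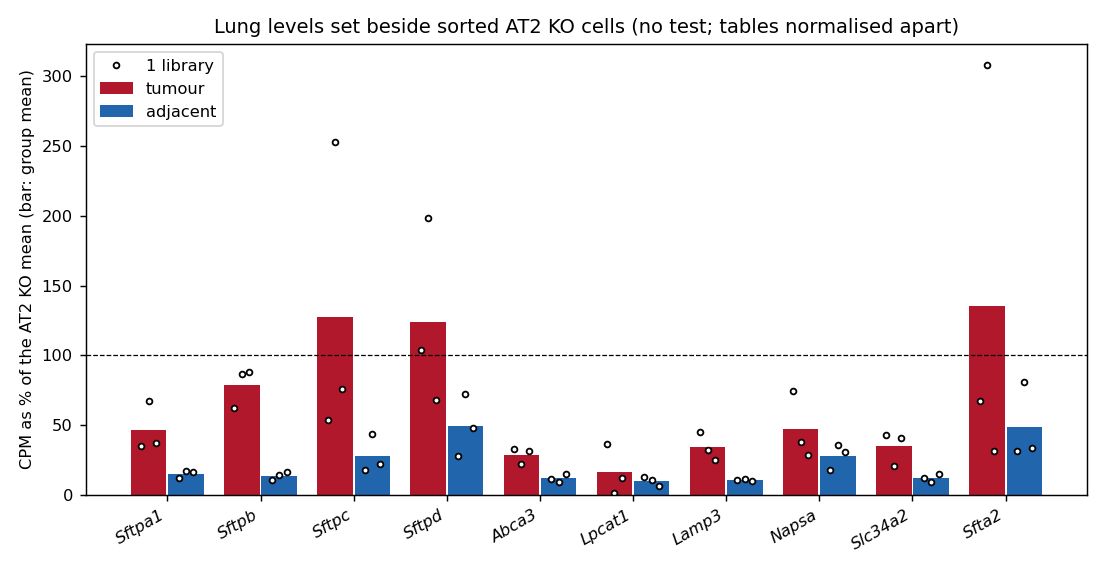
CPM of each member in tumour and adjacent lung as a percentage of its mean in sorted AT2 KO cells, with group means as bars, single libraries as points and 100% as a dashed line; the tables were normalised apart. Tumour means exceed 100% for Sftpc, Sftpd and Sfta2, each with 1 library (mouse 217) far above the others, and lie at 16.6% to 46.9% for the other lamellar body genes.

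Genes of the surfactant pathway outside the 10 members were counted in 7 lists of 133 genes. The lists, like the members, were chosen with earlier results of these data known, so shares set beside all genes are descriptions. Of the 131 tested between tumour and adjacent tissue, 14 rose (10.7%) and 5 fell (3.82%), beside 2.86% and 7.18% of all genes, and the median log2 fold change was -0.13. Many of these calls rested on few libraries, and with 1 library left out 0 to 2 protein processing genes, 0 to 1 in phospholipid and in fatty acid synthesis, 0 to 2 in lamellar body biogenesis, 1 in secretion and 1 to 5 of the regulators rose. In those fits 0 to 1 secretion gene, 0 to 1 regulator and 0 to 2 clearance genes fell, and none in the other 4 lists. Of the 19 genes, Gata6 (higher), Pcyt1b (lower) and Unc13d (lower) are named here, after their values were seen, and those the naming rule gives follow by list. With 1 library left out, Gata6 passed in 2 of 6 fits (without tumour 102 or 217), and Pcyt1b and Unc13d in 0.

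Processing of the surfactant proteins had 2 of 13 genes higher and 0 lower, with a median log2 fold change of -0.19. Cpm, a membrane carboxypeptidase of the alveolar epithelium, had 675, 336 and 334 CPM in tumours, against 152, 75.4 and 93.9 CPM in adjacent tissue (2.06 ± 0.44, adjusted p = 0.0290). Ctsh, the cathepsin that cuts pro-SP-B and pro-SP-C, had 2209, 585 and 1187 CPM in tumours, against 271, 245 and 279 CPM in adjacent tissue (2.32 ± 0.51, adjusted p = 0.0316). Neither overlapped between the groups. Both passed without tumour 217 but in none of the other 5 fits without 1 library, in which their adjusted p reached 0.112 and 0.110.

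Phospholipid synthesis and turnover had 3 of 25 genes higher and 1 lower, with a median of 0.06, and 4 higher and 4 lower with the replicate block. The secreted phospholipase Pla2g1b had 17.9, 121.7 and 40.4 CPM in tumours, against 4.90, 6.997 and 5.75 CPM in adjacent tissue (3.35 ± 0.69, adjusted p = 0.0259). The phospholipase Pla2g6 (1.49 ± 0.35, adjusted p = 0.0383) and the choline kinase Chka, which begins phosphatidylcholine synthesis (1.85 ± 0.46, adjusted p = 0.0427), rose too. Pla2g1b passed in 2 of the 6 fits without 1 library, those without tumour 102 or 217, and Pla2g6 and Chka in none (adjusted p of 0.0657 to 0.115 and 0.0571 to 0.113). Chka did not pass with the replicate block (adjusted p = 0.0770).

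Fatty acid synthesis had 1 of 15 genes higher and 0 lower, with a median of -0.01, and 2 higher with the replicate block. Me1, malic enzyme, which supplies NADPH for lipid synthesis, had 1036, 362 and 538 CPM in tumours, against 101, 104 and 108 CPM in adjacent tissue (2.62 ± 0.45, adjusted p = 0.0155). Its adjacent values were almost equal and all tumours exceeded them more than 3-fold. The call ended without any one of the adjacent libraries, with an adjusted p of at most 0.0660.

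Lamellar body biogenesis and trafficking had 3 of 26 genes higher and 0 lower, with a median of 0.07, and 4 higher and 1 lower with the replicate block. Rab27a, a GTPase of lysosome-related organelles, had 480, 188 and 295 CPM in tumours, against 85.1, 80.5 and 67.5 CPM in adjacent tissue (2.05 ± 0.41, adjusted p = 0.0232). Rab38, whose loss enlarges lamellar bodies in rodents, had 16.1, 11.045 and 14.2 CPM in tumours, against 4.65, 4.46 and 4.92 CPM in adjacent tissue (1.56 ± 0.35, adjusted p = 0.0336). Vps33b, a vesicle tethering protein, rose by 1.41 ± 0.35 (adjusted p = 0.0444). None of the 3 overlapped between groups. Rab27a and Rab38 passed only in the fit without tumour 217 among those without 1 library (adjusted p up to 0.0950 and 0.111), and Vps33b in none (0.0620 to 0.148).

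Secretion and its triggers had 1 of 20 genes higher and 3 lower, with a median of -0.38, and 2 higher and 3 lower with the replicate block. Slc26a9, an epithelial chloride transporter, had 234, 249 and 290 CPM in tumours, against 44.2, 34.4 and 59.0 CPM in adjacent tissue (2.49 ± 0.33, adjusted p = 0.00871), and passed whichever library was left out. Atp10a, a phospholipid flippase, had 16.1, 8.42 and 11.4 CPM in tumours, against 32.2, 31.6 and 53.9 CPM in adjacent tissue, with no overlap (-1.71 ± 0.38, adjusted p = 0.0328). Atp10a passed in none of the 6 fits without 1 library (adjusted p of 0.0554 to 0.116).

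The list of surfactant regulators had 4 of 21 genes higher and 1 lower, with a median of 0.18, and 8 higher and 1 lower with the replicate block. It also holds Sox9, at a mean of 0 CPM in AT2 KO and AT2 WT cells, and Hopx, which stands among the AT1 markers too. Cebpa, which matures AT2 cells, had 932, 1059 and 1243 CPM in tumours, against 152, 220 and 294 CPM in adjacent tissue (2.28 ± 0.38, adjusted p = 0.0145). Foxa2 had 101, 113 and 167 CPM in tumours, against 42.4, 38.7 and 44.1 CPM in adjacent tissue (1.60 ± 0.31, adjusted p = 0.0214). Sox9, a factor of the embryonic distal lung, had 45.4, 67.7 and 125 CPM in tumours, against 0.651, 0.669 and 1.277 CPM in adjacent tissue (6.52 ± 0.58, adjusted p = 0.00592).

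Nkx2-1, the master factor of surfactant genes, had 395, 562 and 1025 CPM in tumours, against 213, 189 and 335 CPM in adjacent tissue. Every tumour exceeded every adjacent sample, but the test gave 1.43 ± 0.45 with an adjusted p of 0.0928, and 1.36 with an adjusted p of 0.0265 under the replicate block. Etv5 had 210, 135 and 238 CPM in tumours, against 117, 107 and 157 CPM in adjacent tissue, and the groups overlapped (0.61 ± 0.34, adjusted p = 0.334). Hopx, which marks AT1 cells, had 45.1, 87.3 and 26.3 CPM in tumours, against 515, 516 and 257 CPM in adjacent tissue (-3.02 ± 0.54, adjusted p = 0.0172). Leaving out 1 library never ended the call of Sox9. It ended that of Cebpa without tumour 224 or adjacent 217 (adjusted p at most 0.0519), that of Hopx without tumour 102, tumour 224 or adjacent 102 (at most 0.0694), and that of Foxa2 without tumour 224 or any adjacent library (at most 0.0817).

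Surfactant clearance had 0 of 11 genes passing in either direction, with a median of -1.32, and 1 lower with the replicate block. In sorted AT2 cells, none of the 124 pathway genes tested passed, and 6 had an unadjusted p under 0.05.

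By pattern over the 6 lung libraries, the 5 non-members most like the mean log2(CPM + 1) of the members, among 10718 genes of mean CPM at least 10, were Klk13, Bmf, Vcpkmt, AU021092 and Josd1, with a Pearson correlation of 0.992 to 0.996. The 6 libraries fall into 2 groups, so likeness of this kind includes the difference between tumour and adjacent tissue and is given as a description. Over the 6 AT2 libraries the 5 most like, among 8667 genes, were Cdipt, Tgfbi, Dnajc10, Cdk17 and Taf11, at 0.991 to 0.997. Of the members themselves, Lamp3 was most like the mean of the other 9 in the lung (0.965) and Lpcat1 least (-0.275).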

How the data were processed

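The authors deposited whole-number counts per gene in 2 tables, 1 for the lung and 1 for the AT2 libraries. The build was GRCm38, per the submitters' processing notes, which name HISAT2, FastQC, StringTie 1.3.3b, Trimmomatic 0.39 and DESeq2 1.28.1 with no role. How reads were counted, and with which strand setting, was not given in the sources used here. Identifiers were named with GENCODE M21, leaving 0.0388% of lung and 0.00383% of AT2 counts unnamed.

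The members and lists were chosen with earlier results of these data known. Each table was filtered with filterByExpr, TMM-scaled and tested whole with edgeR 4.0.16 in R 4.3.3, with group as the only term and Benjamini-Hochberg adjustment. Alternatives used DESeq2 1.42.0, limma 3.58.1 (voom), other scalings, no filter, left-out libraries, and a length offset (added after the data were seen). The mouse numbers pair the lung samples because both tissues came from 1 animal, and deviations from the group means correlated at 0.379 (mouse 102), 0.565 (217) and 0.480 (224).

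Named were all members, from each pathway list up to 3 passing genes by adjusted p, and Nkx2-1, Cebpa, Foxa2 and Etv5; 1 gene of these is not reported here. The fits were tested on simulated data. A 95% interval is of the fitted fold.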

Additional observations from a re-analysis of the deposited data

How the results depend on the processing

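In the lung the direction of all 10 members held under every alternative, except for Lpcat1 and Sfta2. Lpcat1 turned to -0.23 with limma-voom and to -0.00064 with the replicate block, and ranged from -0.62 to 1.23 (log2) with 1 library left out. Sfta2 ranged from -0.055 to 2.07 with 1 library left out. The number of members called, 2, became 6 with the DESeq2 Wald test, 4 with limma-voom, 6 with the replicate block, 5 with the block and the length trend removed, 0 without both libraries of mouse 217, and 0 to 3 with 1 library left out. Of all genes, 2007 were called, against 3729 with the DESeq2 Wald test, 2251 with limma-voom and 2980 with the replicate block. The number was 2846 with the block and the length trend removed, 847 without mouse 217, and 598 to 1854 with 1 library left out. The calls that were higher numbered 571 in the main fit, 1145 with the DESeq2 Wald test, 622 with limma-voom and 1113 with the replicate block. Scaling by library totals without TMM called 2233, of which 17.6% were higher against 28.5%, and moved the median of all genes by -0.22 (log2).

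In AT2 cells no alternative called a member. Of all genes, 0 were called, against 17 with no filter on low counts, 1 with the DESeq2 Wald test, 6 without WT 176 and 177, and 0 to 1 with 1 library left out; a lone WT library is assumed to vary like the KO group. The small estimates changed sign in 18 of 140 refits. Without TMM, Sftpa1 was 0.0091, Sftpb 0.0040, Slc34a2 0.015 and Sfta2 0.051. Without WT 176 and 177, Sftpc was 0.052, Abca3 -0.084, Napsa 0.017 and Sfta2 0.106. With the length trend removed, Sftpb was 0.021 and Sfta2 0.076. With 1 library left out, Sftpa1 ranged from -0.149 to 0.054, Sftpb from -0.098 to 0.0094, Abca3 from -0.098 to 0.323, Lamp3 from -0.295 to 0.054, Slc34a2 from -0.135 to 0.0017 and Sfta2 from -0.067 to 0.034. The replicate block changed no call of a member in the lung beyond the 4 gained (Sftpa1, Sftpc, Abca3 and Slc34a2). The causes were not tested. With 3 libraries a group, the median SE of a log2 fold change was 0.52 in the lung and 0.20 in AT2 cells, which limits smaller differences.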
